A study of Mus musculus with 8 samples.

Results

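The Mirg cluster is a run of miRNA hairpins in the imprinted Dlk1-Dio3 region of mouse chromosome 12, and its mature miRNAs were compared here between mesenchymal stromal cells (MSCs) of 2 tissues. Members were taken by name, from a list of hairpin numbers of this cluster, and 70 of the 1624 mature miRNAs in the small RNA table belong to it. The list was not built from the measured levels, but earlier results of these data were known when it was chosen. Small RNA was sequenced from MSCs of the pancreas (pMSCs, libraries 5 to 8) and of inguinal white adipose tissue (iwatMSCs, libraries 13 to 16), with 4 libraries per tissue. All cells came from untreated male C57BL/6J mice of 8 weeks, were sorted as CD45- CD31- SCA1+ cells, pooled from 3 to 5 mice and grown for 4 days. Both tissues were taken from the same mice, but no label ties a library to its animals, so the libraries were compared as independent samples. The sorted cells of a pool are a mixture, and fewer cells that hold a miRNA cannot be told apart from less of it per cell.

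In imprinted genes only 1 parental copy is active, and in the Dlk1-Dio3 region the noncoding RNAs, Mirg among them, are made from the maternal chromosome. Mirg is the distal noncoding transcript of the region, and many small hairpins lie within it and upstream of it. Enzymes of the miRNA pathway cut each hairpin out and release a 5p and a 3p arm, each of which can enter an Argonaute protein. Bases 2 to 8 of the loaded arm, the seed, pair with target mRNAs. The cluster is known best from brain, from the placenta and from newborn mice, in which its deletion disturbs the adaptation of metabolism after birth.

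RefSeq (GRCm38.p6) placed 36 of the hairpins, all on chromosome 12, between positions 109709060 and 109747960, a stretch of 38.9 kb. The Mirg gene of GENCODE M21, on the same build, spans chr12:109729764-109749460 on the + strand. 13 hairpins lie inside this gene, 9 of them over one of its exons, and the other 23 lie upstream. The exception in orientation is miR-299b, annotated on the - strand across miR-299a, and the other 35 are on the + strand. Places come from matching names to the reference, since the build used for the small RNA reads is not given in the sources used here.

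The mature sequences below are those of most members whose levels are described one by one. miR-1193-5p, miR-379-3p and miR-411-3p are listed for their shared seeds. Each is written 5′ to 3′ in RNA letters from RefSeq (GRCm38.p6), with the seed (bases 2 to 8) in capitals, and all lie on the + strand of chromosome 12. RefSeq held a mature sequence for 66 of the 70 names. miR-376c-3p, miR-485-5p, miR-487b-3p and miR-539-3p are named only.
miR-379-5p (chr12:109709065-109709085): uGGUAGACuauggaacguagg
miR-1193-5p (chr12:109715716-109715735): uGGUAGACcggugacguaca
miR-411-5p (chr12:109710190-109710210): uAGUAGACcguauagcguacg
miR-379-3p (chr12:109709102-109709123): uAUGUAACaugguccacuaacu
miR-411-3p (chr12:109710225-109710246): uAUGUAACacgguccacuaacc
miR-541-5p (chr12:109742422-109742446): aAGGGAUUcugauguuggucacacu
miR-409-3p (chr12:109743204-109743225): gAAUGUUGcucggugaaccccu
miR-369-5p (chr12:109743431-109743452): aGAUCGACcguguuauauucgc
miR-300-3p (chr12:109724363-109724384): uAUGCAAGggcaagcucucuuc
miR-134-5p (chr12:109734145-109734166): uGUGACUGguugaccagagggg
miR-410-3p (chr12:109743764-109743784): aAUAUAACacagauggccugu
miR-376a-3p (chr12:109723824-109723844): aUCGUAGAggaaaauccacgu
miR-329-3p (chr12:109713541-109713562): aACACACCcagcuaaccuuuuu
miR-377-3p (chr12:109740553-109740574): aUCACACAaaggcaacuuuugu
miR-495-3p (chr12:109718795-109718816): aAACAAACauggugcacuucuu
miR-667-5p (chr12:109720020-109720044): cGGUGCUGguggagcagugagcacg
miR-667-3p (chr12:109720061-109720083): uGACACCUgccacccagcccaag

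The 66 sequences carried 60 different seeds. 6 seeds were shared, each by a pair of names. miR-379-5p shares GGUAGAC with the far less abundant miR-1193-5p, and miR-379-3p shares AUGUAAC with miR-411-3p. The other pairs are miR-299a-3p and miR-299b-3p (AUGUGGG), miR-1197-5p and miR-758-5p (GGUUGAC), miR-410-5p and miR-494-5p (GGUUGUC), and miR-376b-5p and miR-376c-5p (UGGAUAU). The 2 leading members, miR-379-5p and miR-411-5p, do not share a seed. Because miR-379-3p and miR-411-3p, the arms of miR-299a and miR-299b, and miR-376b-5p and miR-376c-5p are close in sequence over their length, the division of reads within each of these pairs is uncertain. Lengths ran from 18 to 25 nt, and 36 of the sequences had 22 nt.

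The libraries were alike in depth. Mature miRNAs took 7789990 to 10538022 reads per library, 35.8% to 41.0% of all small RNA reads, and Mirg cluster miRNAs took 1.39% to 1.87% of the mature reads. Levels are given as CPM (reads scaled to a common library size with TMM factors), and a log2 fold change above 0 means a higher level in pMSCs, with an approximate standard error (SE). Sorted MSCs should be rich in mesenchymal miRNAs, and miR-199, miR-214, miR-143 and miR-145 names summed to 63771 to 78961 CPM in pMSCs and 45444 to 54545 CPM in iwatMSCs, with 3 of 10 called higher in pMSCs. Marker miRNAs of other cells also differed between the tissues: 7 of 20 epithelial names were called higher in pMSCs (summed level 428 to 931 CPM against 177 to 255 in iwatMSCs), as were 4 of 8 acinar names (12.2 to 61.8 against 0.660 to 1.27 CPM). For islet names 2 of 8 were called higher and 1 lower (1298 to 2460 against 1302 to 2028 CPM). Neural names summed to 182.3 to 216.2 CPM in pMSCs and 264 to 315 in iwatMSCs, with 4 of 12 called lower in pMSCs. No endothelial (2 names, 218 to 417 against 196 to 353 CPM), haematopoietic (7 names, 30.0 to 78.2 against 31.8 to 86.8 CPM) or muscle (5 names, 293 to 478 against 366 to 781 CPM) name was called by edgeR at an adjusted p under 0.05. The part of these cells in the levels of the cluster was not tested.

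Summed over its members, the cluster stood at nearly the same level in both kinds of MSCs. The summed level was 17561, 16022, 15279 and 15769 CPM in pMSCs libraries 5 to 8, a mean of 16158 ± 985 CPM (SD, n = 4). In iwatMSCs libraries 13 to 16 it was 17723, 15124, 15071 and 16078 CPM, a mean of 15999 ± 1239 CPM (SD, n = 4). The ranges of the tissues overlapped almost wholly, and the ratio of the means was 1.01. Without the most abundant member, miR-379-5p, the ratio was 0.984, and with plain library totals in place of TMM factors it was 0.911. The next most abundant member, miR-411-5p, was still in the sum of that first ratio. Together miR-379-5p and miR-411-5p gave a mean of 60.6% of the cluster's reads in pMSCs and 54.5% in iwatMSCs. The near equality thus describes the sum with these leading arms, and the ratio without both was not computed.

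A small number of arms carried most of these reads. miR-379-5p and miR-411-5p alone gave 52.9% to 64.2% of the cluster's reads in a library, and the 12 most abundant members gave 84.3% to 88.2%. Of the 70 names, 39 had a mean of at least 100 reads per library, 22 had at least 10 but fewer than 100, and 9 had fewer than 10. miR-654-3p had 0 reads in all 8 libraries, out of 70889000 mature reads, which allows up to 3 reads or 0.0423 CPM when only counting error is considered.

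miR-379-5p, the first arm of the cluster and the 30th most abundant mature miRNA of these cells, was its most abundant member. Its level was 6241, 4855, 4992 and 5351 CPM in pMSCs libraries 5 to 8 and 5863, 4493, 5023 and 4726 CPM in iwatMSCs libraries 13 to 16. The highest library was a pMSCs library and the lowest an iwatMSCs library, with the others interleaved. The log2 fold change was 0.09 (SE 0.14, 95% interval -0.23 to 0.42, edgeR adjusted p = 0.762).

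miR-411-5p comes from the next hairpin, and its seed differs from that of miR-379-5p in its first letter. It stood at 5032, 4177, 3919 and 4658 CPM in the pMSCs libraries and at 4434, 3661, 2950 and 3816 CPM in the iwatMSCs libraries. The means were 4446 ± 496.2 and 3716 ± 610 CPM (SD, n = 4 each), and the tissues overlapped. The log2 fold change of 0.26 (95% interval -0.10 to 0.62) had an adjusted p of 0.393 from edgeR.

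**Figure D1:**
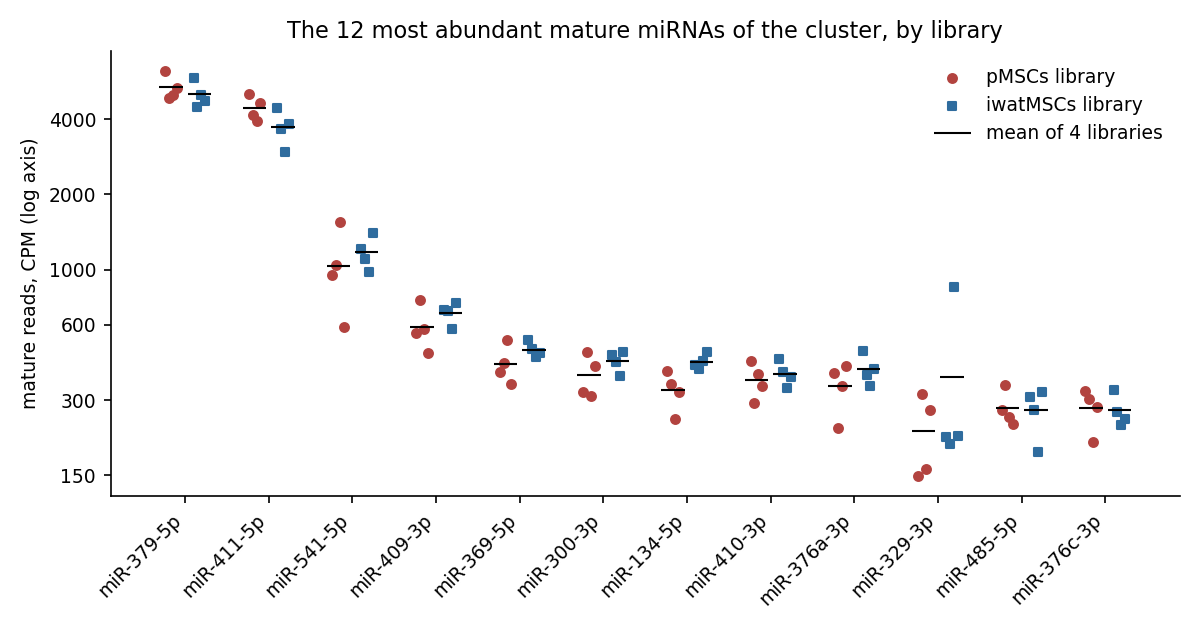
Level of the 12 most abundant Mirg cluster miRNAs in each library, in CPM of mature reads on a log axis. Circles are pMSCs libraries, squares are iwatMSCs libraries and bars are means of 4 libraries. The points of the tissues overlap for each miRNA other than miR-134-5p, and a single iwatMSCs library stands at 849 CPM of miR-329-3p.

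miR-541-5p, an arm of 25 nt, was the third in abundance and the one of the leading arms that varied most among pMSCs libraries. It reached 948, 1045, 1554 and 590 CPM in pMSCs libraries 5 to 8, a 2.63-fold range, against 1207, 1097, 980 and 1398 CPM in iwatMSCs. All iwatMSCs libraries lay within the pMSCs range. Its log2 fold change was -0.18 (95% interval -0.79 to 0.43, edgeR adjusted p = 0.755).

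miR-409-3p, miR-369-5p and miR-410-3p come from the distal end of the cluster, inside the Mirg gene. miR-409-3p stood at 559, 752, 579 and 463 CPM in pMSCs and at 686, 684, 579 and 737 CPM in iwatMSCs (log2 fold change -0.19, 95% interval -0.59 to 0.21). For miR-369-5p the levels were 387, 424, 523 and 347 CPM in pMSCs and 520, 482, 446 and 464 CPM in iwatMSCs (log2 fold change -0.19, 95% interval -0.55 to 0.18). In each case the pMSCs mean was the lower one, and the pMSCs range took in all 4 of the iwatMSCs libraries. miR-410-3p, the arm that gives the miR-379 to miR-410 cluster its other name, had 429.1, 292, 380 and 340 CPM in pMSCs and 438, 388, 336 and 370 CPM in iwatMSCs (log2 fold change -0.09, 95% interval -0.46 to 0.28). The adjusted p-values of the 3 arms from edgeR were 0.578, 0.565 and 0.809.

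miR-300-3p and the miR-376 arms come from hairpins upstream of the gene, and primary transcripts of the miR-376 group are known for A-to-I editing in brain. miR-300-3p stood at 325, 469, 311 and 411.6 CPM in pMSCs and at 453.2, 425, 374 and 466 CPM in iwatMSCs (log2 fold change -0.18, edgeR adjusted p = 0.593). miR-376a-3p had 386, 233, 341.1 and 410.9 CPM in pMSCs and 471, 378, 343 and 400 CPM in iwatMSCs (log2 fold change -0.22, edgeR adjusted p = 0.584). The lowest library of each was a pMSCs library, and the tissues overlapped. miR-376c-3p had 326, 303, 204 and 282 CPM in pMSCs and 331, 269, 239 and 252 CPM in iwatMSCs, with a log2 fold change of 0.03 (95% interval -0.39 to 0.46).

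miR-485-5p was close to level between the tissues, at 273, 345, 258 and 241 CPM in pMSCs and 308, 275, 187 and 322 CPM in iwatMSCs. Its log2 fold change was 0.03 (95% interval -0.44 to 0.50), and iwatMSCs library 15 was the lowest of all 8.

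miR-134-5p, known from rodent neurons as a brake on the growth of dendritic spines through Limk1, was the one leading member whose tissues did not overlap. It stood at 391, 349, 251 and 322 CPM in the pMSCs libraries and at 415, 400, 428.7 and 467 CPM in the iwatMSCs libraries. The gap between the nearest libraries was narrow, 391 against 400 CPM. The log2 fold change was -0.38 (95% interval -0.76 to -0.01), with an unadjusted p of 0.045 and an adjusted p of 0.258 from edgeR. An exact two-sided permutation over the 70 assignments of libraries gave p = 0.0286, the smallest p this design allows.

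No member of the cluster was called different between pMSCs and iwatMSCs. edgeR, with adjustment over all 1241 mature miRNAs tested, called 0 of the 69 members tested higher and 0 lower at an adjusted p under 0.05, while it called 80 miRNAs, 6.45% of all tested. At an unadjusted p under 0.05, 7 members were lower in pMSCs and 0 higher, and the share of all miRNAs lower at that threshold was 8.46%. The 2 tissues did not overlap for 3 members (4.35% of those tested), miR-134-5p, miR-667-3p and miR-667-5p, and for 13.7% of all miRNAs tested. Without pMSCs library 7, the library whose omission matched the study's own set, 0 members and 5.39% of miRNAs were called. In that fit 2 of 69 members had an unadjusted edgeR p under 0.05, beside 197 of all 1244 miRNAs. The count of members was also 2 without iwatMSCs library 16, beside 185 of 1242 miRNAs. It was 3 without pMSCs library 8 (195 of 1236 miRNAs) or iwatMSCs library 15 (204 of 1223 miRNAs).

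The counts were deep enough to bound the difference for the more abundant arms. Among the 39 members with a mean of at least 100 reads, the log2 fold change ran from -1.06 to 0.37, and the 95% interval lay within 2-fold in both directions for 35 (89.7%). The same held for 58.1% of all 370 miRNAs of at least 100 reads, of which 14.3% were called. The other 4 members, miR-329-3p, miR-382-5p, miR-495-3p and miR-377-3p, had intervals that passed 2-fold on the lower side, and no member of this depth had one that passed it on the higher side. The median size of the log2 fold change was 0.18 for these members and 0.33 for all miRNAs of that depth.

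The less abundant arms were bounded less well. The interval was within 2-fold for 11 of the 22 members with 10 to 100 reads and for 0 of the 9 with fewer than 10. At this depth a difference of 2-fold in miR-376a-5p, miR-376c-5p, miR-539-3p or miR-487b-5p was not detectable.

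**Figure D2:**
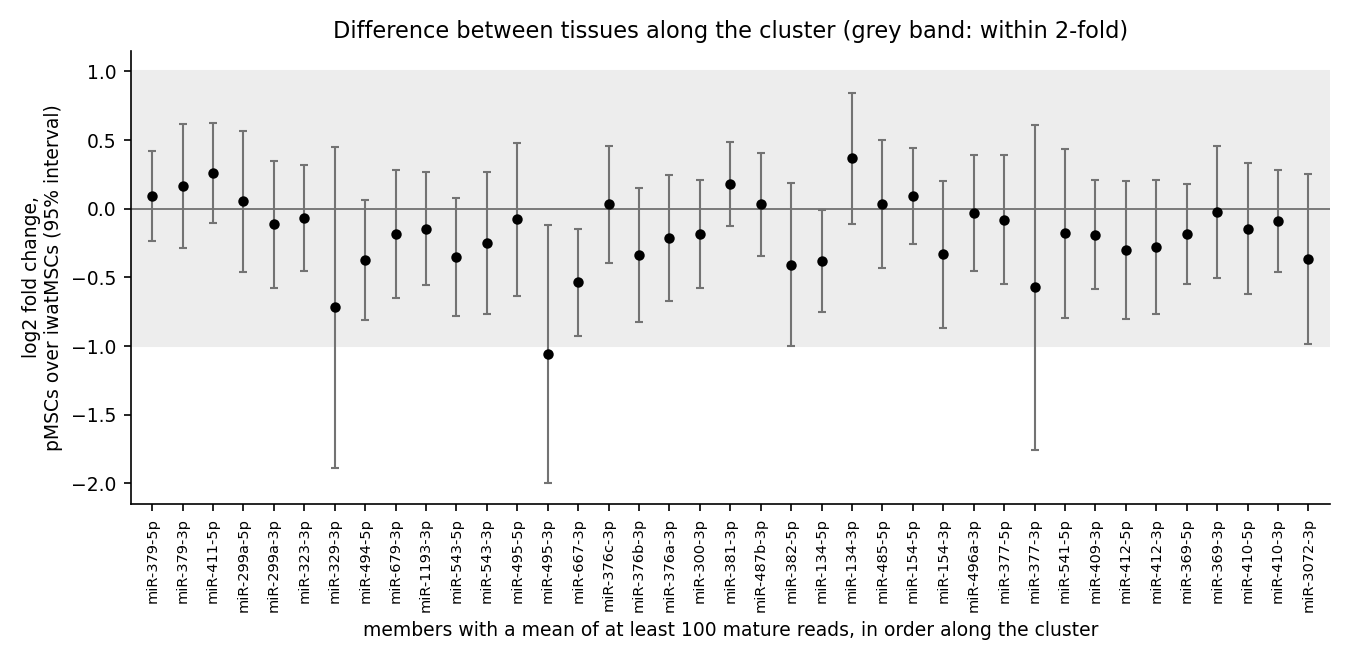
log2 fold change (pMSCs over iwatMSCs) of the 39 members with a mean of at least 100 mature reads, in their order along the cluster. Points are edgeR estimates over 8 libraries, bars are 95% intervals, and the grey band marks differences of less than 2-fold. The points run from -1.06 to 0.37, and 35 of the intervals stay inside the band.

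The estimates leaned to the lower side in pMSCs. Over all 69 members the median log2 fold change was -0.18, against -0.07 for all miRNAs tested, and 50 (72.5%) were below 0, against 53.3% of all. With plain library totals the median of all miRNAs moved to -0.22 and that of the members to -0.33. Neighbouring arms are cut from shared transcripts and were measured in the same libraries, so these 69 values are not independent of each other.

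The hairpin of miR-667 gave the arms nearest to the threshold, and both were chosen for description after their values were seen. miR-667-5p, the minor arm, had 7, 12, 6 and 13 reads in pMSCs libraries 5 to 8 and 19, 35, 24 and 25 reads in iwatMSCs libraries 13 to 16. As levels these were 1.01, 1.22, 0.678 and 1.35 CPM against 2.10, 4.31, 2.55 and 2.75 CPM. Each iwatMSCs library was above each pMSCs library. Its log2 fold change was -1.44 (SE 0.38, 95% interval -2.29 to -0.59), with an unadjusted p of 0.00404 and an adjusted p of 0.0591 from edgeR. The hairpin row of this arm (such rows are described below) showed no such difference. It held 13, 15, 16 and 9 reads in pMSCs and 13, 16, 19 and 7 in iwatMSCs. The log2 fold change there was 0.0013 (edgeR unadjusted p = 0.998).

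miR-667-3p, the major arm of the same hairpin, was lower in pMSCs in each library too, by a smaller amount. It had 36.4, 50.7, 40.0 and 37.0 CPM in pMSCs and 59.6, 55.0, 65.7 and 57.9 CPM in iwatMSCs. Its log2 fold change was -0.54 (SE 0.17, 95% interval -0.93 to -0.15, edgeR adjusted p = 0.125). The DESeq2 test called both arms lower in pMSCs (adjusted p = 0.0113 for miR-667-5p and 0.00207 for miR-667-3p) and no other member, and it called 10.5% of all miRNAs. For each arm the exact permutation p was 0.0286, the smallest the design allows.

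Of the other members at an unadjusted p under 0.05, miR-495-3p, miR-494-3p, miR-485-3p and miR-3072-5p each stood highest in iwatMSCs library 15. miR-494-3p had 4.03, 4.78, 2.83 and 3.94 CPM in pMSCs and 5.74, 4.31, 8.81 and 6.93 CPM in iwatMSCs. Its log2 fold change was -0.73 (edgeR adjusted p = 0.244) over the 8 libraries and -0.54 (edgeR adjusted p = 0.391) without library 15.

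Library 15 stood apart from the other libraries over the whole table. Of the 662 mature miRNAs with a mean of at least 10 reads, 62 (9.37%) were at least 1.5 times higher in library 15 than in every other library, against 0.302% to 1.06% in each of the other 7. Of the 61 cluster members of that depth it was 5 (8.20%), a share near that of all miRNAs. These were miR-329-3p, miR-495-3p, miR-409-5p, miR-485-3p and miR-3072-5p.

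miR-329-3p, which in rat neurons is among the miRNAs of this region raised by neuronal activity, showed this most. It stood at 149, 318, 159 and 273 CPM in pMSCs, at 214.4, 201 and 216.2 CPM in iwatMSCs libraries 13, 14 and 16, and at 849 CPM in library 15. In reads this was 8005 in library 15 against 1037 to 3124 in the other 7 libraries. The log2 fold change was -0.72 (95% interval -1.88 to 0.45) with library 15 and 0.09 (edgeR adjusted p = 0.893) without it, so the sign rested on that library. The other arm of the hairpin, miR-329-5p, had 29 reads in library 15 and 40 to 64 in the other libraries.

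miR-495-3p had 80.1, 89.98, 63.3 and 64.7 CPM in pMSCs and 75.0, 93.0, 305.5 and 148 CPM in iwatMSCs libraries 13 to 16. Libraries 15 and 16 were well above all others, library 14 lay just above the highest pMSCs library, and library 13 lay among the pMSCs libraries. The log2 fold change of -1.06 (95% interval -1.997 to -0.12, unadjusted p = 0.0308, edgeR adjusted p = 0.220) became -0.50 (adjusted p = 0.372) without library 15. Its opposite arm miR-495-5p stood at 16.3 CPM in library 15, within the 14.0 to 26.6 CPM of the other libraries.

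The remaining members of this kind were minor arms with few reads. miR-3072-5p had 188 reads in library 15 and 17 to 77 in the others, miR-409-5p 89 against 15 to 38, and miR-485-3p 55 against 11 to 32. Without library 15 the log2 fold change of miR-3072-5p went from -1.38 to -0.70 and that of miR-485-3p from -0.95 to -0.58. For both, iwatMSCs library 16 was the second highest.

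**Figure D3:**
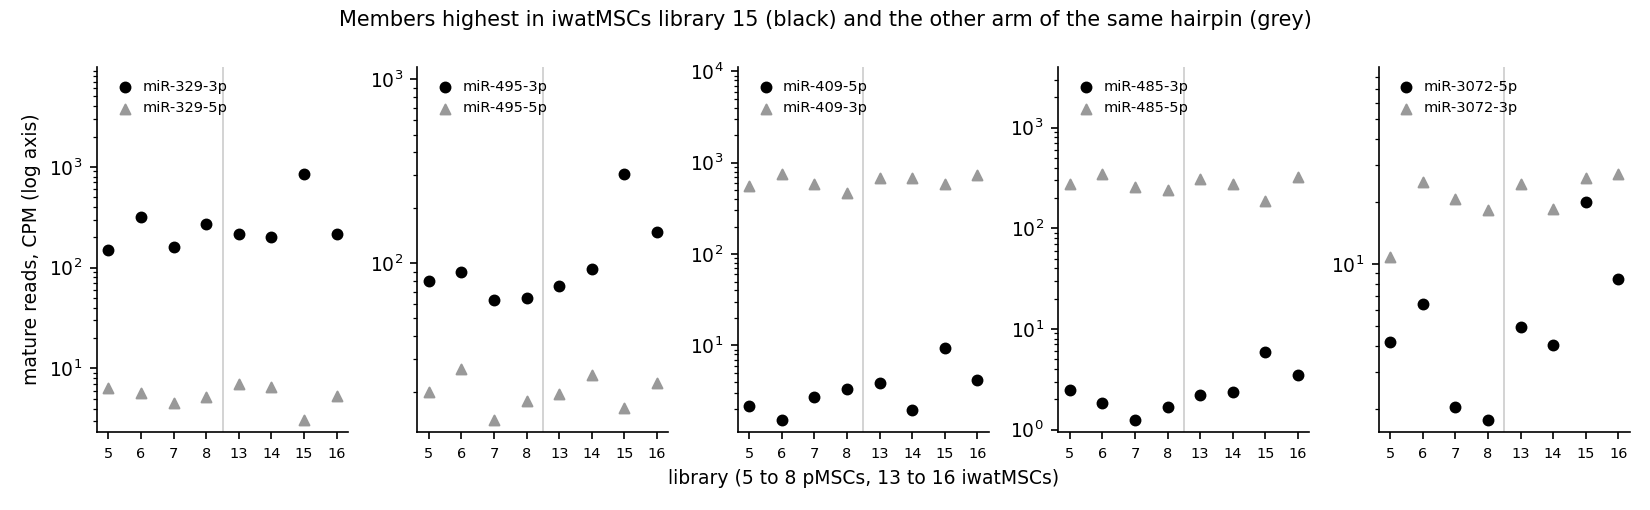
Level of 5 members that stood highest in iwatMSCs library 15 (black circles) and of the other arm of the same hairpin (grey triangles), in CPM of mature reads on a log axis, one panel per hairpin and one column of points per library. The point of library 15 is the highest black point of each panel, at 849 CPM for miR-329-3p, and the grey points do not stand apart there upwards.

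Among members with a mean of at least 100 reads, miR-377-3p had the widest range among pMSCs libraries. It had 15.7, 9.05, 7.80 and 31.8 CPM in pMSCs libraries 5 to 8, a 4.08-fold range, and 18.6, 13.0, 44.1 and 19.9 CPM in iwatMSCs. Library 8 was the highest pMSCs library and library 15 the highest iwatMSCs library. Across the 39 members with at least 100 reads the median ratio of the highest to the lowest library was 1.47 among pMSCs and 1.39 among iwatMSCs, and 33 members stayed under 2-fold within both tissues.

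Within a tissue, the libraries did not take turns evenly. Of these 39 members, 22 were highest in pMSCs library 6 and 18 were lowest in pMSCs library 7. Among iwatMSCs, 22 were lowest in library 15, the same library in which the 5 arms above were highest. These counts cover arms of shared transcripts and stand as a description.

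The choice of arm was compared in mature rows for 27 hairpins of the cluster with a mean of at least 10 reads of each arm. The 5p arm held over 50% of the reads in 11 of them, from 99.9% in miR-411, 99.4% in miR-541 and 99.2% in miR-379 down to 0.586% in miR-409 and 0.803% in miR-300. Arms of miR-380 and miR-1197 were close to balance in mature rows, with 55.3% and 51.9% of reads from the 5p arm. With the reads of the hairpin rows (described below) added, the 5p share was 3.35% for miR-380 and 48.3% for miR-1197. That share went from 82.6% to 30.9% for miR-494 and from 25% to 83.4% for miR-376b. The 5p arm then held over 50% in 9 of the 27 hairpins. miR-541 and miR-409 are neighbours in the cluster, and their reads came almost wholly from opposite arms.

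No arm ratio of the cluster passed the test between tissues. In exact permutation tests of the log2 ratio of 5p to 3p reads, 0 of the 27 hairpins had p of 0.05 or less, against 14 of all 170 hairpins compared (8.24%), and the smallest adjusted p among the 27 was 0.463. miR-134 had a mean log2 ratio of 3.94 ± 0.39 in pMSCs and 4.70 ± 0.24 in iwatMSCs (SD, n = 4 each), a difference of -0.76 with an exact permutation p of 0.0571. The same p was reached by miR-667 (-5.22 ± 0.44 and -4.37 ± 0.51, a difference of -0.85), miR-376b (-1.21 ± 0.40 and -1.94 ± 0.34, a difference of 0.74) and miR-154 (2.97 ± 0.34 and 2.53 ± 0.12, a difference of 0.44).

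The table also lists each arm a second time among its hairpin rows, and how reads were divided between the 2 kinds of row is not given in the sources used here. The hairpin row held fewer reads than the mature row for 49 of the 70 names, so it is not a total that includes it. A few arms had nearly all of their reads there. miR-411-3p had 22 to 55 reads per library in its mature row and 3517 to 5791 in its hairpin row, which held 98.9% to 99.5% of both together. miR-380-3p (97.1% to 97.9%), miR-376b-5p (94.6% to 96.3%) and miR-494-3p (89.8% to 93.0%) followed. For miR-411-3p and miR-380-3p the share was steady from library to library, and differed between the tissues by -0.06 and 0.23 percentage points. Some other arms differed more (pMSCs minus iwatMSCs), by 7.12 points for miR-154-5p, 4.08 for miR-411-5p and -6.11 for miR-679-3p. For miR-667-5p, with few reads in either row, the difference was 24.0 points.

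Arms of this kind were found across the table. Of the 50 arms with at least 100 reads in both rows together, 4 had over 90% in the hairpin row, against 7.64% of all 419 such arms, and 14 (28%) had over 50%, against 43.4% of all. miR-379-3p, the near twin of miR-411-3p, had 81.3% of its reads in the hairpin row. The levels given here for both count mature rows only.

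The hairpin rows gave no call between tissues either. edgeR called 0 of 67 members tested in their hairpin rows, against 7.74% of all hairpin rows. At an unadjusted p under 0.05 there were 8 members. The share of all hairpin rows at that threshold was not counted, so these 8 are listed as a description only. They went in both directions. miR-411-5p, miR-154-5p and miR-134-3p were higher in pMSCs, and miR-485-3p, miR-679-3p, miR-667-3p, miR-495-3p and miR-409-5p were lower. The hairpin row of miR-411-5p held 17176, 20600, 17069 and 21867 reads in pMSCs libraries 5 to 8 and 15928, 14108, 10405 and 13477 in iwatMSCs libraries 13 to 16. These reads are not scaled to library size. The log2 fold change of this hairpin row was 0.56 (edgeR adjusted p = 0.0841), beside 0.26 in the mature row. The hairpin row of miR-154-5p had a log2 fold change of 0.54 (edgeR adjusted p = 0.0746). In the hairpin row of miR-495-3p library 15 again stood highest, at 2318 reads against 484 to 1146.

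**Figure D4:**
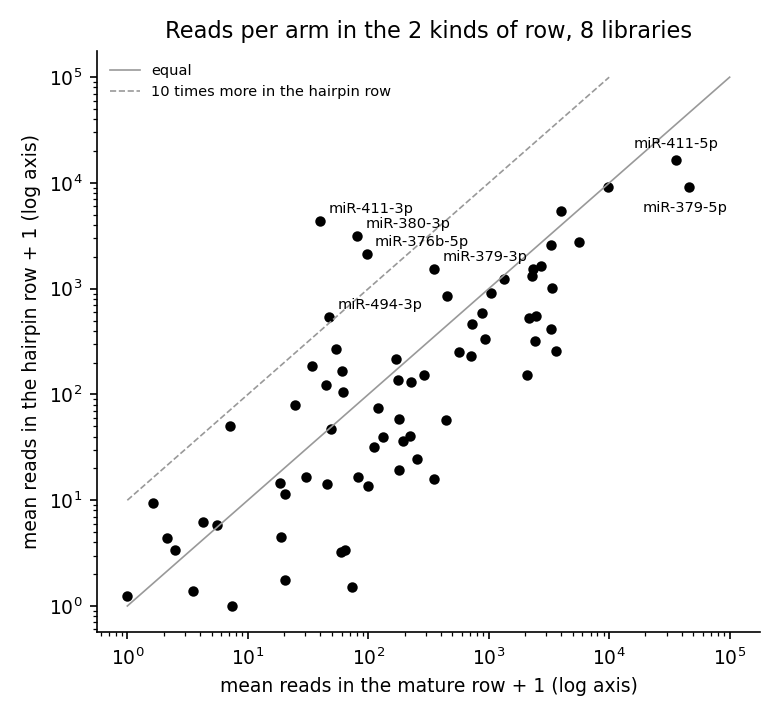
Mean reads of each arm of the cluster over the 8 libraries in its mature row (horizontal axis) and in its hairpin row (vertical axis), both with 1 added and on log axes. Points above the solid line had more reads in the hairpin row, and miR-411-3p, with means of 38.8 mature and 4344 hairpin reads, lies farthest above it among the abundant arms.

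The other miRNAs of the Dlk1-Dio3 region, taken from a list of names whose places were not checked here, gave the same picture. Of 36 names 35 were tested, edgeR called 0 of them in either direction, and 2, miR-673-3p and miR-770-5p, were lower at an unadjusted p under 0.05; DESeq2 called these 2. Their summed level was 8718 ± 201 CPM in pMSCs and 8550 ± 752 CPM in iwatMSCs (SD, n = 4 each), and their median log2 fold change was -0.30.

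The authors also deposited a value headed TPM, and for the cluster 1 library stood apart in it. In pMSCs library 7 it was 1 for 67 of the 67 members with 2 or more reads, among them miR-379-5p with 44172 reads, and the members summed to 68. In the other 7 libraries they summed to 104426 to 136297, and the value was never above the read count and fell clearly below it only for the most abundant arms. Over all mature rows the value summed to 1162 in library 7 and was 1 in 94.5% of its rows with at least 10 reads. The reads of library 7 were ordinary: it held 9236362 mature reads, and its summed level of the cluster, 15279 CPM, lay within the range of iwatMSCs.

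**Figure D5:**
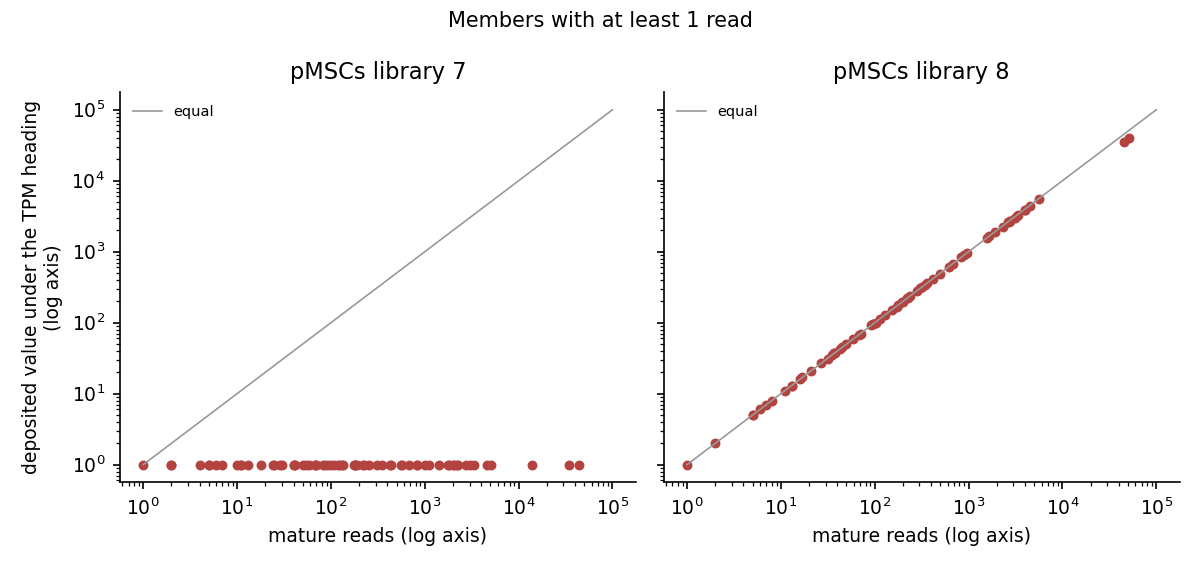
Deposited value headed TPM (vertical axis) against mature reads (horizontal axis) for the cluster members with at least 1 read, on log axes, in pMSCs library 7 (left) and pMSCs library 8 (right). In library 8 the points follow the line of equality up to the 2 most abundant arms, and in library 7 they lie at 1 whatever the reads.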

How the data were processed

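Small RNA libraries (miRNeasy RNA, UMI adapters, BGISEQ) were processed by BGI for the authors, with Bowtie2 named without a version. Genome build and miRNA release are not given in the sources used here. The deposited table holds, per small RNA and library, a read count and a score headed TPM, which the authors wrote as 0.001 for 0; how it was scaled was not stated. Read counts were analysed as deposited, with no per-sample column left out.

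Mature rows whose mean reached 1 read in either tissue were fitted in edgeR 4.0.16 (TMM, quasi-likelihood F test, tissue as the only term, two-sided) in R 4.3.3 over all 8 libraries, with Benjamini-Hochberg adjustment over all rows tested and calls at an adjusted p under 0.05. The SE is the log2 fold change divided by the square root of F. Exact permutation tests (scipy 1.17.1) used log2(CPM + 1), and arm ratios used reads + 0.5. The fits were tested on simulated data. As labels do not say that pools share no animals, p-values measure the spread between these libraries.

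Members and lists were chosen with earlier results of these data known. Described one by one were members called, the 12 most abundant, the 3 with the widest range within a tissue at 100 or more reads, hairpins with an arm ratio p of 0.05 or less, and members whose call changed without library 7. The study left out 1 unnamed small RNA library, and its table means could be matched only without library 7. Members at an unadjusted p under 0.05 and arms rich in hairpin reads were added after their values were seen. Alternatives were DESeq2 1.42.0, DESeq2 size factors, library totals, other filters, limma 3.58.1 on log2 of the deposited TPM score, similar names summed, known names only, and each library left out. Chosen after seeing the data were limma without library 7, mature and hairpin rows summed, and libraries 7 and 15 left out together.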

Additional observations from a re-analysis of the deposited data

Results flagged for a closer look

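The level of miR-329-3p in iwatMSCs library 15 was 849 CPM, against 201 to 216.2 CPM in the other 3 iwatMSCs libraries, a gap that takes up most of the range of the group. It was 1 of 38 groups of 4 libraries examined for such a gap, and chance alone gives about 1 in 20 (Dixon's test at the 95% level). Its read count was high in the same library, at 8005 reads. The part of library 15 as a whole, in which 9.37% of the mature miRNAs of at least 10 reads stood 1.5 times above every other library, was not tested.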

How the results depend on the processing

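No member of the cluster was called higher in pMSCs under any alternative run, and none lower with any 1 library left out. 1 member was lower, miR-667-5p, with library totals, a minimum mean of 10 reads and known names only, and 2, both miR-667 arms, with DESeq2. Of the other Dlk1-Dio3 miRNAs, 1 was lower with library totals, with known names only and with mature and hairpin rows summed, and 2 with a minimum of 10 reads and with DESeq2. Of all miRNAs tested, 6.20% were called with library totals, 12.5% with a minimum of 10 reads and 9.39% with known names only. With mature and hairpin rows summed it was 6.25%. DESeq2 called 130 of all miRNAs (10.5%). limma on the deposited TPM called 14, 23 and 5 with pseudocounts of 1, 0.5 and 5, with library 7 and its values of 1 included. Without library 7 and with a pseudocount of 1, limma called 64. The edgeR fits with 1 library left out called 56 to 72. The summed ratio was 0.911 with library totals and 0.742 from the deposited TPM. The ratio from the deposited TPM includes library 7, whose members summed to 68, against 104426 to 136297 in the other libraries. With hairpin rows summed, the arm ratios of 3 of 27 cluster hairpins (miR-154, miR-134 and miR-485) reached the smallest p. Of all 209 hairpins compared, 13 (6.22%) reached it. None of the 3 passed adjustment.

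The sign of some fold changes turned, none of them called. On the log2 scale, library totals gave -0.0568 for miR-379-5p, -0.12 for miR-485-5p and -0.11 for miR-376c-3p. With pseudocounts of 1, 0.5 and 5, limma on the deposited TPM gave -3.46, -3.57 and -3.07 for miR-379-5p, -3.25, -3.35 and -2.85 for miR-411-5p, -2.50, -2.61 and -2.11 for miR-485-5p, and -2.46, -2.56 and -2.06 for miR-376c-3p, again with library 7 at 1. Without libraries 7 and 15, miR-329-3p was at 0.23, miR-377-3p at 0.14 and miR-485-5p at -0.0747. With 1 library left out, the range was -0.50 to 0.0135 for miR-541-5p, -0.90 to 0.0948 for miR-329-3p, -0.11 to 0.13 for miR-485-5p and -0.0739 to 0.12 for miR-376c-3p. The cause was not tested. Over all settings of the named members, 25 values changed sign and 5 gained a call. No paired analysis was possible because the labels give the tissues no shared replicate numbers.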
